A study of Homo sapiens with 8 samples.

Results

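The 10 genes described here make, trim and load the peptides that MHC class I molecules display, or control that system. They are NLRC5, B2M, HLA-E, TAP1, TAP2, TAPBP, PSMB8, PSMB9, PSMB10 and ERAP1. Members were chosen by symbol: every probe set that the platform annotation assigns to one of these genes alone was taken, which gave 23 of 54675 probe sets and 10 of the 19775 genes that have such a probe set. Total RNA from 8 cultures was hybridized to Affymetrix expression arrays. Per the labels, the groups were SUP-B8 cells with GSK126 at 0.5 uM, SUP-B8 cells with the vehicle DMSO, NALM-6 cells with GSK126 at 0.5 uM and NALM-6 cells with DMSO. Each group had 2 biological replicates, and all cultures were treated for 72 hours. Both lines are labelled acute lymphoblastic leukaemia, so each represents 1 established tumour line at 1 dose and 1 time, and the labels do not give their EZH2 genotype. GSK126 inhibits EZH2, the catalytic subunit of the Polycomb complex PRC2, whose histone methylation marks repressed genes.

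Proteasomes cut cytosolic proteins into peptides, and in lymphoid cells the immunoproteasome subunits PSMB8, PSMB9 and PSMB10 replace the constitutive catalytic ones. The transporter formed by TAP1 and TAP2 carries the peptides into the endoplasmic reticulum, where ERAP1 trims them and tapasin, the product of TAPBP, holds the empty class I molecule at the transporter. A class I molecule is a heavy chain, such as HLA-E, paired with beta-2-microglobulin, the product of B2M. NLRC5 is the transactivator of class I genes and acts through the SXY module of their promoters, in which RFX, CREB/ATF and NF-Y factors bind. Interferon and NF-kB signalling are known inducers of the same genes.

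The lineage markers went against the NALM-6 label, so all arrays are named here by their labels. On the arrays labelled NALM-6, a line known as a precursor B-cell leukaemia, 7 of 10 precursor B-cell markers lay below the median of every array and 3 above. Their summed linear level was 4764 to 4912 under GSK126 and 5189 to 5597 under DMSO. On the arrays labelled SUP-B8, all 10 lay above the median, with sums of 72620 to 75048 under GSK126 and 74872 to 78465 under DMSO. DNTT, the template-independent polymerase of precursor lymphocytes, read 13.58 and 13.50 with GSK126 and 13.58 and 13.76 with DMSO on the arrays labelled SUP-B8. It read 6.73 and 6.57 with GSK126 and 6.89 and 6.84 with DMSO on those labelled NALM-6, below the median of every one of these arrays. None of 4 monocyte markers lay above the median on the arrays of any group. Of 4 T-cell markers, 2 lay above it in every group. Of 3 NK-cell markers, 2 lay above it for the SUP-B8 labels and 1 for the NALM-6 labels. The erythroid gene HBB lay above it on all 8 arrays, so a value above the median does not by itself show a lineage. Of 7 markers of mature or germinal-centre B cells, 6 lay above the median on all arrays labelled NALM-6 and 1 below, with sums of 23406 to 23928 under GSK126 and 32963 to 32967 under DMSO. On the arrays labelled SUP-B8, 2 lay above and 5 below, with sums of 3115 to 3255 under GSK126 and 2591 to 2732 under DMSO. The part of lineage in the comparisons between labels was not tested.

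Because most of the members moved together, their promoters are shown first, limited to the windows that hold a match to the interferon-stimulated response element core within the upstream 250 bases. Windows come from RefSeq on GRCh38.p14, which covered 8 of the 10 genes with 11 windows, each from 250 bases before to 50 after a transcript start. The stretch before the start is printed 5′ to 3′ on the gene's own strand. Capitals mark the response element core (GAAA, any 2 bases, GAAA) and the consensus NF-kB site, each on either strand, and in B2M also the CRE-like core TGACG and the Y box ATTGG.
B2M, chr15:44711267-44711516, plus strand: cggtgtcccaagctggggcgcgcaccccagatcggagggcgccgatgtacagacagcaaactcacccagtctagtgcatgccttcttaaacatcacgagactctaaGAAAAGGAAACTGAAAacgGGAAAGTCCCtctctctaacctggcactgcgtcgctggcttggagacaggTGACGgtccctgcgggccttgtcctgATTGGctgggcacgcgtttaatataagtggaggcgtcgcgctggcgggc
TAP1, chr6:32853705-32853954, minus strand: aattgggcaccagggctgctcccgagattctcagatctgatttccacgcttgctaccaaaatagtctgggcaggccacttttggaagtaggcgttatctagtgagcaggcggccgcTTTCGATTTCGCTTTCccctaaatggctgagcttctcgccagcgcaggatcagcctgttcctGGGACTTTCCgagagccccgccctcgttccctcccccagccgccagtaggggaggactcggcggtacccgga
TAP2, chr6:32838740-32838989, minus strand: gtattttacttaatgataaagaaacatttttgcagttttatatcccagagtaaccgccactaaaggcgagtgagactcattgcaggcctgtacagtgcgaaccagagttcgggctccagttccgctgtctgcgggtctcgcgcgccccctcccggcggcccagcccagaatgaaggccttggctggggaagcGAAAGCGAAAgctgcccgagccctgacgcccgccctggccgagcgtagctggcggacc
PSMB10, chr16:67936851-67937100, minus strand: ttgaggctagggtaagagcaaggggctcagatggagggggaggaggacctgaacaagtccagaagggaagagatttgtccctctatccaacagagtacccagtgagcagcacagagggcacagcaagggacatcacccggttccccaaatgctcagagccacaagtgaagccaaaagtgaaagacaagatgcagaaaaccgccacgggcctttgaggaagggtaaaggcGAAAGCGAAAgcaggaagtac
TAPBP, chr6:33314079-33314328, minus strand: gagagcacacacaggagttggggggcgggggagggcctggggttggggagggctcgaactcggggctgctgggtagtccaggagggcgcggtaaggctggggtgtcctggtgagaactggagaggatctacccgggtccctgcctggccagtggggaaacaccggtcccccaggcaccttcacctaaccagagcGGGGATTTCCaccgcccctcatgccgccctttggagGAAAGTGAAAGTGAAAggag

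The response element core matched in 7 of the 11 windows, which belong to 7 of the 8 genes, against 3.57% of 35116 windows of all genes. In B2M a pair of overlapping cores spanned positions -144 to -129 from the start, and an NF-kB site followed at -125 to -116. TAP1 had overlapping cores at -134 to -119 and an NF-kB site at -72 to -63. NF-kB matches occurred in 4 of the 11 windows, 1 each of B2M, TAP1, TAPBP and ERAP1, against 11.3% of all windows. TAP1 and PSMB9 are transcribed away from each other from starts 487 bases apart, and the core printed for TAP1 lies 354 to 369 bases from the PSMB9 start, outside the PSMB9 window. TAP2 had 1 core at -58 to -49 and PSMB10 had 1 at -21 to -12. In TAPBP overlapping cores lay at -20 to -5, next to the start, and an NF-kB match at -56 to -47. Further cores crossed the second start of PSMB8, at -4 to 6, and followed the second start of ERAP1, at 3 to 12. Y box letters matched in 4 windows, against 34.6% of all windows, and the CRE-like core in 4, against 24.6%. The windows of TAP1 and PSMB9 overlap, and their Y box matches are the same site. The gamma-activated site core TTCNNNGAA matched in 2 windows, against 7.66%. These are matches of letters, not measured binding.

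**Figure D1:**
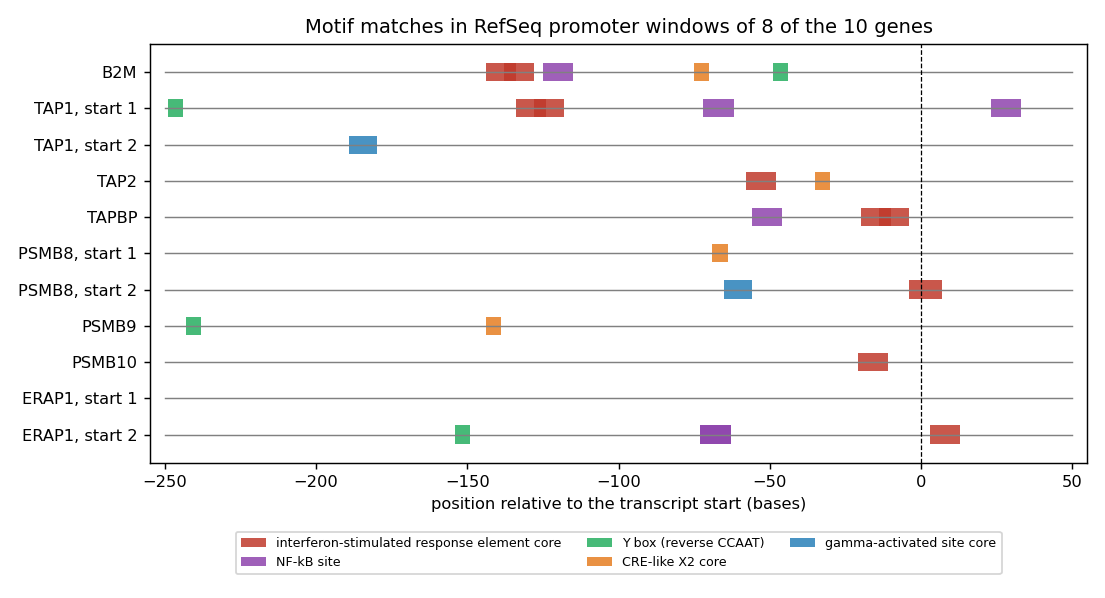
Motif matches by position in bases from the transcript start, 1 row for each of the 11 promoter windows of 8 genes; bars mark the matched bases and colours the motif. The response element core appears in 7 windows, and in TAPBP it lies at -20 to -5.

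In the arrays labelled NALM-6, 9 of the 10 genes rose with GSK126 and none fell; TAPBP was not called. A call is an adjusted p under 0.05 from limma, with Benjamini-Hochberg adjustment over all 13161 genes tested, and all 10 members passed the filter on dim probe sets. In the same comparison 20.8% of all genes tested were called higher and 18.5% lower. The members' median log2 difference was 0.55, against 0.02 over all genes. Values are log2 expression of the gene's brightest probe set, and differences are GSK126 minus DMSO ± SE. In every one of the 10 genes both GSK126 arrays lay above both DMSO arrays, which held in this direction for 36.3% of all genes. Markers of mature or germinal-centre B cells moved in the same arrays: MS4A1 (-0.95), CD22 (-0.57), CR2 (-0.52) and RGS13 (-0.34) were called lower with GSK126, and CCR7 (-0.29) and CD86 (0.12) were not called. The B-lineage markers CD79B (0.55) and PAX5 (0.34) were called higher and CD79A (-0.14) was not called. Of the precursor B-cell markers, CD24 (0.37) was called higher and IGLL1 (-0.32) and MME (-0.22) lower, and the others were not called. CD24 and IGLL1 lay below the array medians there. The part of these shifts in the members' rise was not tested. In cultures measured in bulk, more cells of one kind and more RNA per cell cannot be told apart.

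In the arrays labelled SUP-B8, none of the 10 genes was called between GSK126 and DMSO. In that comparison limma called 1.91% of all genes higher and 0.334% lower. Member differences lay between -0.16 for ERAP1 (adjusted p = 0.284) and 0.08 for PSMB8 (adjusted p = 0.515), with a median of -0.02, the same as over all genes. In 1 member both treated arrays lay above both vehicle arrays and in 5 below, against 19.5% and 30.0% of all genes. At an unadjusted p under 0.05 the member count was 1, and 2198 genes passed over the whole table. Among the lineage markers, MS4A1 (1.07) and RGS13 (0.58) were called higher with GSK126 here, opposite to the NALM-6 labels. RGS13 lay below the array medians, and no other tested marker was called. The difference of responses, SUP-B8 minus NALM-6 labels, was called lower for 9 of the 10 members, against 14.5% of all genes tested, and higher for none, against 10.9%. This is a test of the difference itself, so in those 9 genes the response of the brightest probe set was larger for the NALM-6 labels. The other B2M probe sets were not called for this difference by limma over all probe sets tested. They were 201891_s_at (-0.21, adjusted p = 0.0668) and 232311_at (0.01, adjusted p = 0.929). For B2M and HLA-E the call was lost with each array centred on its median, and with any 1 of 6 arrays left out (adjusted p up to 0.0847 and 0.0838).

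**Figure D2:**
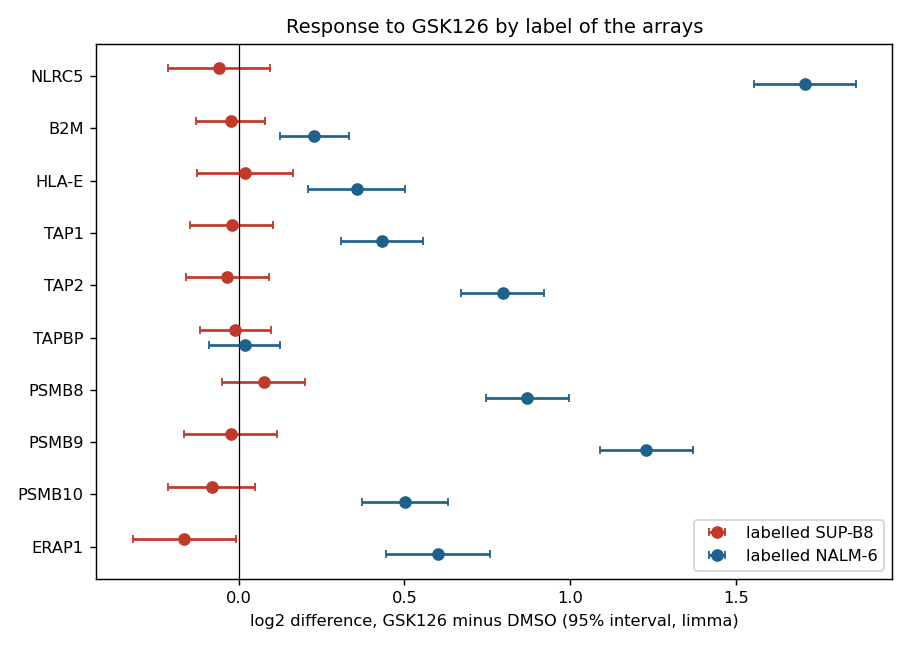
Log2 difference, GSK126 minus DMSO, of each gene in arrays labelled SUP-B8 and in arrays labelled NALM-6; bars are 95% intervals from limma. For the NALM-6 labels the points run from 0.02 for TAPBP to 1.71 for NLRC5, and for the SUP-B8 labels from -0.16 to 0.08.

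NLRC5, the transactivator, showed the largest response of the 10. Its values on the arrays labelled NALM-6 were 10.34 and 10.15 with GSK126, against 8.53 and 8.55 with DMSO. Both treated arrays thus stood well clear of both vehicle arrays. NLRC5 rose by 1.71 ± 0.07, which is 3.27-fold (adjusted p = 1.68e-06). On the arrays labelled SUP-B8 it read 9.91 and 9.89 with GSK126, against 9.93 and 9.98 with DMSO. There the difference was -0.06 ± 0.07, with a 95% interval of -0.21 to 0.10. The response differed by -1.77 between the labels (adjusted p = 2.4e-05). NLRC5 has 1 probe set of its own on the array, so no second probe set checks these values.

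Of the immunoproteasome genes, PSMB9 and PSMB8 followed NLRC5 in size, while PSMB10 ranked below TAP2 and ERAP1 by the brightest probe sets. With probe sets averaged, TAP2 (0.36) and ERAP1 (0.44) ranked below PSMB10. PSMB9 read 12.57 and 12.53 with GSK126, against 11.24 and 11.39 with DMSO, on the arrays labelled NALM-6. On those labelled SUP-B8 it read 12.05 and 11.99 with GSK126, against 12.03 and 12.06 with DMSO, where the groups overlap. PSMB9 rose by 1.23 ± 0.06, or 2.35-fold, for the NALM-6 labels (adjusted p = 4.04e-06), and its difference for the SUP-B8 labels was -0.02, with an interval of -0.16 to 0.12. PSMB8 read 12.72 and 12.68 with GSK126, against 11.79 and 11.87 with DMSO, on the arrays labelled NALM-6. It read 12.31 and 12.22 with GSK126, against 12.19 and 12.18 with DMSO, on those labelled SUP-B8. PSMB8 rose by 0.87 ± 0.05, or 1.83-fold (adjusted p = 1.21e-05), for the NALM-6 labels. It was also the one member whose treated arrays both exceeded their vehicle arrays for the SUP-B8 labels, without a call. PSMB10 read 11.53 and 11.50 with GSK126, against 10.96 and 11.07 with DMSO, for the NALM-6 labels, a rise of 0.50 ± 0.06 (adjusted p = 0.000247). For the SUP-B8 labels it read 11.20 and 11.13 with GSK126, against 11.23 and 11.26 with DMSO, and was not called.

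**Figure D3:**
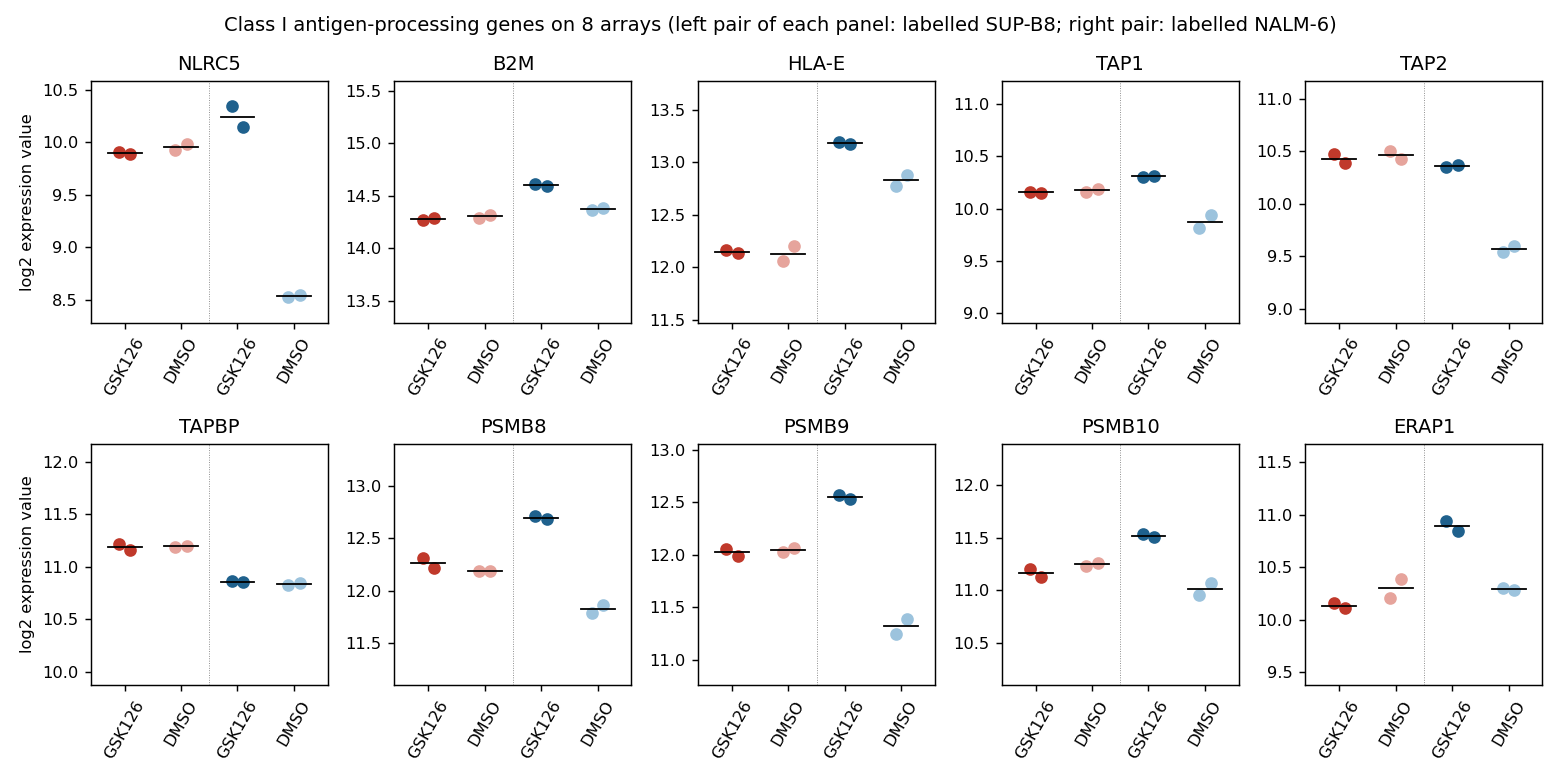
Log2 expression value of each gene on the 8 arrays, 1 panel per gene, with GSK126 left of DMSO within each label; points are arrays and dashes group means. For the NALM-6 labels the treated pair lies above the vehicle pair in all 10 panels, by a mean of 0.02 in TAPBP and of 1.71 in NLRC5.

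Both subunits of the peptide transporter rose. TAP2 read 10.36 and 10.37 with GSK126, against 9.54 and 9.60 with DMSO, for the NALM-6 labels, and TAP1 read 10.30 and 10.31, against 9.82 and 9.93. Neither pair of groups overlaps. The rises were 0.80 ± 0.05 for TAP2, or 1.74-fold (adjusted p = 1.97e-05), and 0.43 ± 0.05 for TAP1, or 1.35-fold (adjusted p = 0.000427). For the SUP-B8 labels TAP2 read 10.48 and 10.39 with GSK126, against 10.50 and 10.43 with DMSO. TAP1 read 10.16 and 10.15 with GSK126, against 10.16 and 10.19 with DMSO. Neither gene was called there. Of the other TAP2 probe sets, 204769_s_at rose by 0.33 and 204770_at by 0.40 (adjusted p = 0.00223 and 0.00163 over all probe sets tested), smaller than the brightest one, and the mean over the TAP2 probe sets rose by 0.36. The dim 208428_at lay below the median of every array.

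ERAP1, the trimming peptidase, read 10.94 and 10.84 with GSK126, against 10.30 and 10.28 with DMSO, for the NALM-6 labels. It read 10.16 and 10.11 with GSK126, against 10.21 and 10.38 with DMSO, for the SUP-B8 labels, where the treated arrays were the lower ones without a call. The rise for the NALM-6 labels was 0.60 ± 0.07, or 1.52-fold (adjusted p = 0.000253). Its probe sets did not move alike. The probe set 214012_at read 8.57 and 8.58 with GSK126, against 7.25 and 7.34 with DMSO, a rise of 1.28 ± 0.06 (adjusted p = 5.69e-06). In contrast 210385_s_at rose by 0.39 (adjusted p = 0.000966), and 209701_at, near the array medians, had a difference of -0.28 (adjusted p = 0.127). The fifth, 214034_at, lay below the median of every array and was not tested.

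TAPBP was the exception. It read 10.86 and 10.85 with GSK126, against 10.83 and 10.85 with DMSO, for the NALM-6 labels, and 11.21 and 11.16, against 11.19 and 11.20, for the SUP-B8 labels. Its difference for the NALM-6 labels was 0.02 ± 0.05 (adjusted p = 0.79), with an interval of -0.09 to 0.13. The other TAPBP probe sets gave -0.13 (1555565_s_at, adjusted p = 0.114) and -0.09 (210294_at, adjusted p = 0.344), so none of the 3 was called. Its promoter is among those printed above, which were chosen for holding the response element core. The window of PSMB9, which rose by 1.23 for the NALM-6 labels, had no match to that core. The part of the core in the responses was not tested.

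HLA-E and B2M had the smallest differences among the 9 called members. HLA-E, a heavy chain recognized by natural killer cell receptors, read 13.19 and 13.17 with GSK126, against 12.78 and 12.88 with DMSO, for the NALM-6 labels. For the SUP-B8 labels it read 12.16 and 12.13 with GSK126, against 12.06 and 12.20 with DMSO, where the treated values lie within the vehicle range. The rise for the NALM-6 labels was 0.36 ± 0.06, or 1.28-fold (adjusted p = 0.00267). The brightest HLA-E probe set is of the kind that can bind related heavy chain transcripts (suffix x_at). The more specific 200904_at read 11.48 and 11.47 with GSK126, against 11.14 and 11.17 with DMSO, and rose by 0.33 (adjusted p = 0.00152). For the SUP-B8 labels that probe set read 9.80 and 9.73 with GSK126, against 9.74 and 9.74 with DMSO, again below the NALM-6 labels.

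B2M read 14.61 and 14.59 with GSK126, against 14.37 and 14.38 with DMSO, for the NALM-6 labels, and 14.27 and 14.28, against 14.28 and 14.32, for the SUP-B8 labels. At a mean percentile of 99.70 it lay near the top of the scale, where array maxima were 15.06 to 15.11. B2M rose by 0.23 ± 0.05, or 1.17-fold (adjusted p = 0.00464). A second bright probe set, 201891_s_at, rose by 0.17 (adjusted p = 0.0332). The dim 232311_at went the other way, with 7.10 and 7.23 under GSK126, against 7.36 and 7.43 under DMSO. It fell by at least 0.17 on the log2 scale (adjusted p = 0.0197), a bound because the treated arrays lay below their medians. The call for B2M ended when its probe sets were averaged, at a difference of 0.05 (adjusted p = 0.37).

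**Figure D4:**
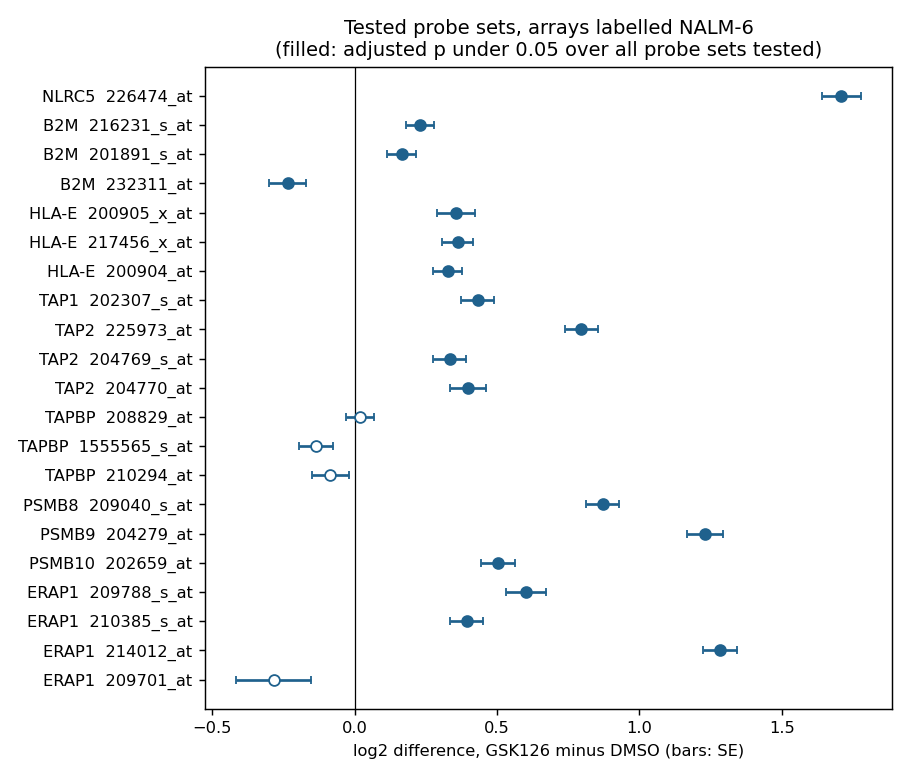
Log2 difference, GSK126 minus DMSO, of the 21 tested probe sets of the 10 genes in arrays labelled NALM-6, with SE as bars and filled points where called. Of these, 16 rose and 1, of B2M, fell.

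Over all 23 probe sets, 21 passed the filter, and in the NALM-6-labelled arrays 17 of them were called, against 39.3% of all 30199 probe sets tested. Of these 16 rose, against 19.2% of all, and 1 fell. In the SUP-B8-labelled arrays none was called, against 1.16%. The difference of responses was called for 15, all lower, against 24.5% called either way. Between labels 14 were called under DMSO and 18 under GSK126, against 67.8% and 66.5%. Probe sets of 1 gene share their transcript and are not independent.

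Under DMSO, 7 of the 10 genes were called higher for the SUP-B8 labels than for the NALM-6 labels and 1 was lower, while 37.8% of all genes were called higher and 30.6% lower. NLRC5 stood 1.42 ± 0.07 higher (adjusted p = 2.05e-07), TAP2 0.90 (adjusted p = 1.01e-06) and PSMB9 0.73 (adjusted p = 7.97e-06). Smaller differences were called for PSMB8 (0.36), TAPBP (0.36), TAP1 (0.30) and PSMB10 (0.23). HLA-E was lower by the called difference of -0.70 (adjusted p = 1.31e-05). B2M (-0.07, adjusted p = 0.199) and ERAP1 (0.01, adjusted p = 0.94) were not called. Most genes of the table were called in this comparison, so calls counted in either direction set the members little apart. By direction, the share called higher exceeded that of all genes, and the members' median was 0.33 against 0.04.

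Under GSK126 the order of the labels turned for 5 of the 10 members. This comparison was added after the data were seen, and it shares its arrays with the ones above. Here 8 genes were lower for the SUP-B8 labels and 1 was higher, against 32.6% and 35.1% of all genes. HLA-E differed by -1.03 (adjusted p = 1.19e-06), ERAP1 by -0.76, PSMB9 by -0.53, PSMB8 by -0.43, NLRC5 by -0.35, PSMB10 by -0.35, B2M by -0.32 and TAP1 by -0.15 (adjusted p = 0.0321). TAPBP remained higher by 0.33 (adjusted p = 0.000245), and TAP2, at 0.07 (adjusted p = 0.309), was not called. The other tested TAP2 probe sets were called higher for the SUP-B8 labels, 204769_s_at by 0.81 (adjusted p = 3.38e-06) and 204770_at by 0.26 (adjusted p = 0.00619), and the mean over the TAP2 probe sets was a called 0.29. NLRC5, PSMB8, PSMB9, PSMB10 and TAP1 were therefore called higher for the SUP-B8 labels under DMSO and lower under GSK126. The TAP1 call under GSK126 was lost with any 1 of the 4 treated arrays left out (adjusted p up to 0.119), with each array centred on its median (-0.12, adjusted p = 0.145) and with no filter on dim probe sets (adjusted p = 0.0623).

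Across the 8 arrays the members' mean centred profile was 0.36 and 0.32 for NALM-6 labels with GSK126 and -0.37 and -0.30 with DMSO. It lay between -0.04 and 0.04 on the arrays labelled SUP-B8. Correlation of each member with the mean of the other 9 over these 8 arrays, which share lines and treatments, was 0.988 for PSMB9, 0.984 for PSMB8, 0.971 for PSMB10 and 0.959 for TAP1. It was 0.839 for NLRC5, 0.675 for TAP2, 0.675 for ERAP1 and 0.601 for B2M. HLA-E (0.099) and TAPBP (-0.026) correlated little with the rest over all 8 arrays. This measure also takes in level differences between the labels. HLA-E differed by -0.70 between labels under DMSO, while its response of 0.36 for the NALM-6 labels was called. The 5 genes outside the list with the profile most like the mean were MRFAP1L2 (r = 0.997), RRM2 (0.996), RIOX2 (0.993), MYDGF (0.993) and MANF (0.992). For the NALM-6 labels MANF, a secreted factor of the endoplasmic reticulum, rose by 1.22 with GSK126. RRM2, a subunit of ribonucleotide reductase, rose by 0.37. The 5 genes were picked for likeness on these same 8 arrays, so their rises follow from the selection and are no separate result.

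The other genes of the pathway did not all follow in the arrays labelled NALM-6. Of 6 tested class I heavy chain genes, 5 rose and none fell, with a median of 0.58 against 0.02 over all genes. HLA-F rose by 0.81, HLA-G by 0.62, MR1, which presents vitamin B metabolites, by 0.60 and HLA-C by 0.55, while HFE (0.10) was not called. Apart from MR1, these were measured by probe sets that can bind each other's transcripts, so the values are not independent. Of 6 partners that fold or load class I molecules, 5 rose and none fell, with a median of 0.34. PDIA3, the oxidoreductase of the loading complex, rose by 0.67, UGGT1, which checks glycoprotein folding, by 0.46, and the lectin chaperones CANX and CALR by 0.34 each.

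For the proteasome subunits outside the immunoproteasome, the list medians lay near the 0.02 of all genes. Of 6 constitutive catalytic subunits and activators, 1 rose and 2 fell, with a median of -0.00 on the log2 scale. In this comparison 20.8% of all genes were called higher and 18.5% lower, so these counts set that list little apart. PSME1, an activator subunit known to be induced by interferon gamma, rose by 0.40, while the differences of PSMB6 and PSME3 were both -0.18 and called lower. PSMB5 (0.01) and PSMB7 (0.05) were not called. No gene of this list was called lower without NALM-6 DMSO 2 or without either NALM-6 GSK126 array, and 1 was without NALM-6 DMSO 1. Of 10 other core subunits 1 rose, PSMA4 by 0.15 (adjusted p = 0.0446), with a median of 0.02. No core subunit was called higher when any NALM-6-labelled array or either SUP-B8 GSK126 array was left out.

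Of 8 class I promoter factors tested, 2 rose and 2 fell, with a median of -0.01. These counts are close to the 20.8% of all genes called higher and 18.5% called lower in this comparison. NFYA rose by 0.20 and RFXANK by 0.19, while CREB1 (-0.25) and NFYC (-0.23) fell. CIITA, the class II counterpart of NLRC5, was not called at -0.04. With each array centred on its median none of these factors was called higher. Without NALM-6 GSK126 1 the list had 0 higher and 1 lower, without NALM-6 DMSO 2 it had 1 and 1, and without NALM-6 DMSO 1 or NALM-6 GSK126 2 it had 1 and 2. Of 11 interferon signalling genes 4 rose and 3 fell, with a median of -0.03, against the same shares of all genes. IFNAR1, a receptor subunit, rose by 0.50 and the activating factor IRF1 by 0.39, while the kinase JAK2 (-0.84) and the receptor subunit IFNGR1 (-0.42) fell. Of 5 NF-kB subunits 4 fell and none rose, with a median of -0.39. The 4 were REL (-0.92), NFKB2 (-0.52), RELB (-0.39) and NFKB1 (-0.38). In PRC2, SUZ12 (-0.21) fell and EZH2, the target of GSK126, was at 0.01 without a call. The SUZ12 call was lost without NALM-6 DMSO 2 or either NALM-6 GSK126 array. In the arrays labelled SUP-B8 no gene of these 8 lists was called in either direction.

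**Figure D5:**
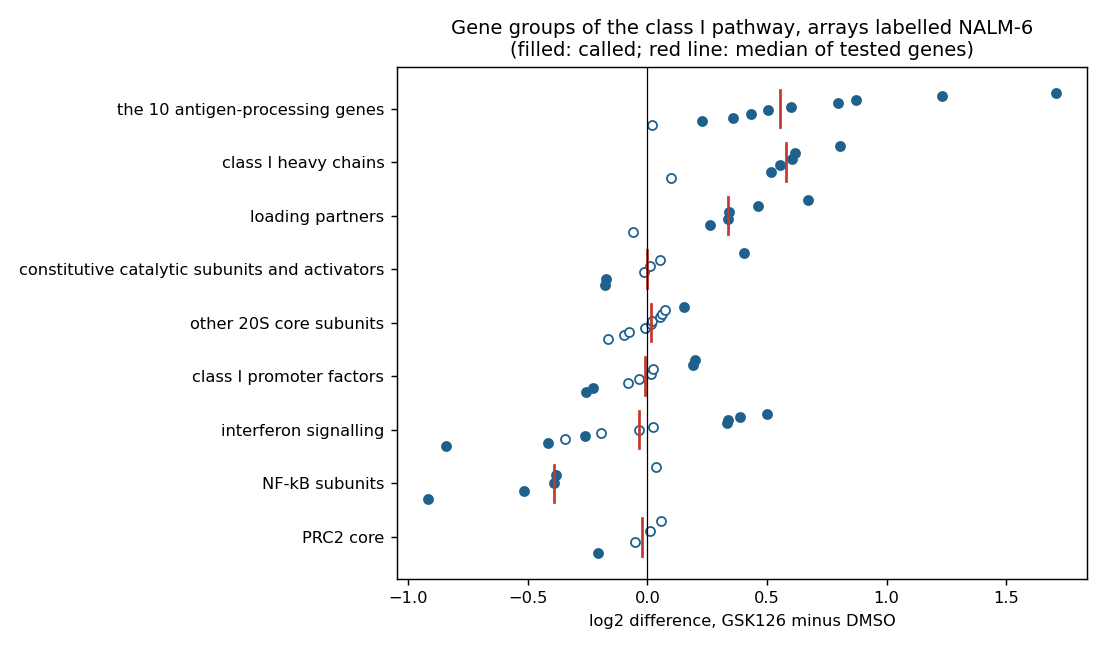
Log2 difference, GSK126 minus DMSO, of each tested gene in the 10 antigen-processing genes and 8 related lists, arrays labelled NALM-6; filled points were called and red lines are medians. The members' median is 0.55 and that of the heavy chains 0.58, while the NF-kB subunits lie at -0.39.

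Under DMSO, 37.8% of all genes were called higher for the SUP-B8 labels and 30.6% lower, and the list counts stand against these shares. The loading partners were higher in 6 of 6 genes for the SUP-B8 labels, with PDIA3 at 1.12, UGGT1 at 0.77, TAPBPL, a tapasin relative, at 0.73 and ERAP2, a peptidase beside ERAP1, at 0.62. Among 11 interferon signalling genes 9 were lower and 1 higher, with IRF8 at -4.71, IFNAR2 at -2.75, IFNGR2 at -2.68 and JAK2 at -2.56. Of the NF-kB subunits 4 were lower and 1 higher, with NFKB2 at -3.40. RELB read 7.17 and 7.19 for the SUP-B8 labels, against 10.88 and 10.96 for the NALM-6 labels. Its SUP-B8-labelled arrays lay below their medians, so the size of that difference is uncertain. Of the heavy chains, HLA-G (-0.18) was the 1 called gene. These lists therefore show no common direction between the labels.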

How the data were processed

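RNA of 8 cultures was measured on 1 array each. The deposited values are log2 expression per probe set, as judged from the values. The authors used MAS5 and RMA, per the submitters' processing notes, but which tool did what, and in which version, is not given in the sources used here. Array medians lay between 7.18 and 7.24 and replicates correlated at about 0.998 across probe sets, so the number of arrays limits the precision. Normalization between arrays hides any shift common to most transcripts. Names come from the platform annotation, using probe sets with 1 symbol, and each gene is represented by its probe set with the highest mean. Genes entered the test when 2 or more of the 8 arrays exceeded their own median.

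limma version 3.58.1 in R version 4.3.3 fitted 1 mean per group with 4 residual degrees of freedom, and Benjamini-Hochberg adjustment ran over all genes tested (or all probe sets). Calls are at an adjusted p under 0.05. Python version 3.11.15 read promoters and drew figures. The fit was tested on simulated data. Members and lists were chosen with earlier results of these data known, and list genes named are the up to 4 called genes of largest size; the 5 most alike genes are ranked by Pearson r. Genes outside this rule (HFE, PSMB5, PSMB7, CIITA, EZH2) were chosen after their values were seen. The comparison of labels under GSK126 and the list counts under alternatives were added after the data were seen. Alternatives covered filter, probe set choice, normalization, variance prior, arrays in the fit, replicate block and omission of each array.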

Additional observations from a re-analysis of the deposited data

Results flagged for a closer look

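For 9 of the 10 genes the response to GSK126 differed between the arrays labelled SUP-B8 and those labelled NALM-6 by limma's test of the difference itself (SUP-B8 minus NALM-6, 2 arrays per group). NLRC5 differed by -1.77, PSMB9 by -1.25, TAP2 by -0.83, PSMB8 by -0.80 and ERAP1 by -0.77 on the log2 scale. PSMB10 differed by -0.58, TAP1 by -0.45, HLA-E by -0.34 and B2M by -0.25. For B2M, 1 of its 3 tested probe sets was called for this difference. The lineage markers go against the NALM-6 label, so the direction is stated by label, and the part of lineage in these differences was not tested.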

How the results depend on the processing

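No called member value changed sign under the alternatives run. Of 840 member values under alternatives, 24 lost a call, 3 gained one and 813 stayed on their side of the threshold. The member count for the NALM-6 labels was 9, or 8 with averaged probe sets, and 0 for the SUP-B8 labels throughout. For the difference of responses it was 7 to 9. B2M and HLA-E lost that call with each array centred (-0.21 and -0.29), with no filter, and with any 1 of 6 arrays left out (NALM-6 DMSO 1, NALM-6 GSK126 1 or 2, SUP-B8 DMSO 2, SUP-B8 GSK126 1 or 2), with adjusted p up to 0.0847 and 0.0838. Averaging probe sets gave TAP2 a response of 0.36 for the NALM-6 labels and a difference of responses of -0.38, and gave ERAP1 -0.47 there and B2M -0.15 with its call lost. Under GSK126 it gave TAP2 a called 0.29 and took B2M to -0.51 and ERAP1 to -0.43, and under DMSO it took B2M to a called -0.36. Genes called for the SUP-B8 labels numbered 296, but 177 with all probe sets adjusted together, 777 with a trended robust prior, 160 with no filter and 191 with that label's 4 arrays alone. With 1 array left out the count was 27 to 217: 136 and 94 without SUP-B8 DMSO 1 or 2, and 27 and 72 without SUP-B8 GSK126 1 or 2. The cause of these shifts was not tested. Of the 8 related lists, none had a call for the SUP-B8 labels except under the trended prior and with averaged probe sets. Same-numbered replicates deviated together only weakly or not at all (r = -0.0417 and -0.0180 for GSK126 with DMSO, 0.130 and 0.0363 between labels). Across both label and treatment r was -0.199 (SUP-B8 GSK126 with NALM-6 DMSO) and -0.108 (SUP-B8 DMSO with NALM-6 GSK126). With 2 arrays per group these values cannot show whether same-numbered cultures shared a batch. With the replicate block no member call changed, and 4972 genes were called for the NALM-6 labels and 202 for the SUP-B8 labels.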
